A study of Mus musculus with 4 samples.

Results

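The genes described here act in the G2 phase of the cell cycle and in mitosis, when a cell with replicated DNA commits to division, condenses its chromosomes, attaches them to the spindle and separates them. A list of 48 such genes was taken by symbol, and the files held a row of its own for 47 of them, out of 21091 rows in all. The exception was *Foxm1*, a transcription factor that activates many late cell cycle genes, which is listed only in a row joined with *4933413G19Rik*. Its joined value was not attributed to it. The members were grouped by function into 8 classes: cyclins and other regulators of mitotic entry, mitotic kinases with the chromosomal passenger proteins, the spindle assembly checkpoint, coactivators and E2 enzyme of the anaphase-promoting complex (APC/C) with securin and separase, centromere and kinetochore proteins, spindle motors and spindle proteins, cytokinesis, and condensins with other mitotic chromosome proteins.

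RNA-seq was performed on mouse neural progenitors in 4 groups with 1 library in each, namely CTL and *Stat3* cKO cells from embryos at E11 or E14. All animals were on a C57BL/6 background, and the dissociated brain cells had been grown as neurospheres, floating clusters of dividing progenitors, for 3 days in serum-free medium with EGF and FGF. *Stat3* cKO embryos carried homozygous floxed *Stat3*, deleted in the exons for the SH2 domain by a Cre transgene under the rat Nestin promoter and enhancer, which is active in neural progenitors. The controls are called WT in the sample labels and wild-type in the RNA-seq methods, whereas the animal methods describe Nestin-Cre embryos with a single floxed allele as controls. If the CTL embryos were wild-type and so lacked Cre, Cre and loss of *Stat3* cannot be told apart in the genotype ratios. How many embryos each culture pooled is not stated. STAT3 is a transcription factor downstream of cytokine and growth factor receptors, and the comparison asks how expression differs between the genotypes at an early and a later stage of neurogenesis. The Cre line is described as deleting *Stat3* in neural progenitors by E14, so deletion at E11 is not given by the sources, and the labelled genotypes are compared there.

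Progress through mitosis is ordered by phosphorylation and by protein destruction. CDK1 bound to cyclin A or cyclin B starts mitosis once CDC25 phosphatases remove its inhibitory phosphates, the spindle assembly checkpoint then holds the APC/C inactive until every kinetochore is attached, and the APC/C with its coactivator CDC20 finally destroys securin and cyclin B. Most of these genes are transcribed in a wave that peaks in G2 and M phase. Their promoters are known for a cell cycle genes homology region (CHR), bound by the MuvB complex with DREAM, B-MYB or FOXM1, and for CCAAT boxes bound by NF-Y. In the embryonic brain most of these genes are expressed in dividing progenitors and are shut down in neurons. For such genes a level in bulk RNA depends on the share of cells in G2 and mitosis and on the RNA in each. Fewer such cells and less RNA per cell cannot be told apart in these libraries.

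Promoters are shown for 6 genes on which the values below turn, from 120 bases before to 30 bases after the start of transcription in RefSeq (GRCm38.p6), 5′ to 3′ on the strand of the gene. Capitals mark a CHR (TTTGAA or TTCGAA) or a CCAAT box (CCAAT), read on either strand. *Cdk1*, *Ccnb1* and *Ccnb2* encode the kinase and the cyclins of mitotic entry, *Cdc25b* had the highest genotype ratio at E14, *Cdc20* had the highest stage ratio in *Stat3* cKO, and *Mad2l1* had the highest genotype ratio at E11 and holds neither motif.
*Cdk1*, chr10:69352883-69353032, minus strand: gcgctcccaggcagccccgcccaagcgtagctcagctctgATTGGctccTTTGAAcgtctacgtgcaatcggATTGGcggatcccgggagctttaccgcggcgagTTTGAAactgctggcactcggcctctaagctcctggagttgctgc
*Ccnb1*, chr13:100786457-100786606, minus strand: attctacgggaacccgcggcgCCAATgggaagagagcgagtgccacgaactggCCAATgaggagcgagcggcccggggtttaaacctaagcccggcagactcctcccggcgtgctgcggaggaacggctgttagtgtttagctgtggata
*Ccnb2*, chr9:70421525-70421674, minus strand: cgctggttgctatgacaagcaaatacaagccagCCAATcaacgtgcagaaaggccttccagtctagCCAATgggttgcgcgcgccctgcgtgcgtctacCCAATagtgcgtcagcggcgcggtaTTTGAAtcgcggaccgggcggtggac
*Cdc25b*, chr2:131186828-131186977, plus strand: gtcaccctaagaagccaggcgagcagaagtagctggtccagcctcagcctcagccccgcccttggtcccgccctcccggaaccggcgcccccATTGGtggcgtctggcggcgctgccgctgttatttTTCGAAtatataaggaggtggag
*Cdc20*, chr4:118437314-118437463, minus strand: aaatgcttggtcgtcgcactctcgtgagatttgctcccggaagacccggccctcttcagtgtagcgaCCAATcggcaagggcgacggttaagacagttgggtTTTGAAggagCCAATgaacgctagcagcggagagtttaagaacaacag
*Mad2l1*, chr6:66535101-66535250, plus strand: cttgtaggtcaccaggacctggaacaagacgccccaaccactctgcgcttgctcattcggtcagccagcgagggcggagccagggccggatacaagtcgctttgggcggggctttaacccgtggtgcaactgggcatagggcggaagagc

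Within these stretches *Cdk1* had 2 CHR and 2 CCAAT matches, *Ccnb2* had 1 CHR and 3 CCAAT matches, and *Cdc20* had 1 CHR and 2 CCAAT matches. *Ccnb1* had 2 CCAAT boxes and no CHR, and *Cdc25b* had 1 match to each. Windows of 300 bases, from 250 bases before to 50 bases after the start, were found for 40 of the 48 members. A CHR occurred in 31 of these 40 genes (77.5%), against 15.5% of the 9159 analysed genes with a window and 19.2% of all 32851 windows in the table. A CCAAT box occurred in 31 of the 40 (77.5%), against 43.7% of the analysed genes and 37.4% of all windows. Both motifs were present in 27 of the 40 (67.5%), against 6.57% and 7.52%. The CHR matches lay close to the start. In 28 of the 40 genes (70%) a match fell between 50 bases before and 50 bases after it, which was true of 5.31% of all windows, and in 8 (20%) a pair of CCAAT boxes began between 30 and 34 bases apart, against 1.49% of all windows. Both of these position limits were chosen after the matches had been seen. For them the members were counted as genes with a match in any of their 43 windows. The comparison counted single windows, and no share of the analysed genes was computed.

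Motifs of other factors were less common in these windows. A string of the E2F type (TTTCGCG, the similar TTTGGCG, the string TTTCCCG or the string TTTGCCG) occurred in 6 of the 40 genes (15%), namely *Aspm*, *Birc5*, *Cdk1*, *Ncapd2*, *Ncapg* and *Ncaph*, against 13.1% of the analysed genes and 6.7% of all windows. A STAT-like string (TTC and GAA separated by any 3 bases) occurred in 1 of the 40 (2.5%), *Ncaph*, against 8.08% of the analysed genes and 8.3% of all windows. The searches covered both strands and counted overlapping matches, and a STAT-like string can contain a CHR, whereas no other string searched contains another. A match is a description of the letters and not evidence of binding. The windows of *Birc5*, *Mad2l1*, *Ncaph*, *Nuf2* and *Pttg1* held neither a CHR nor a CCAAT box, and those of *Ccnb1*, *Cenpe*, *Fzr1* and *Nek2* held a CCAAT box without a CHR.

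**Figure D1:**
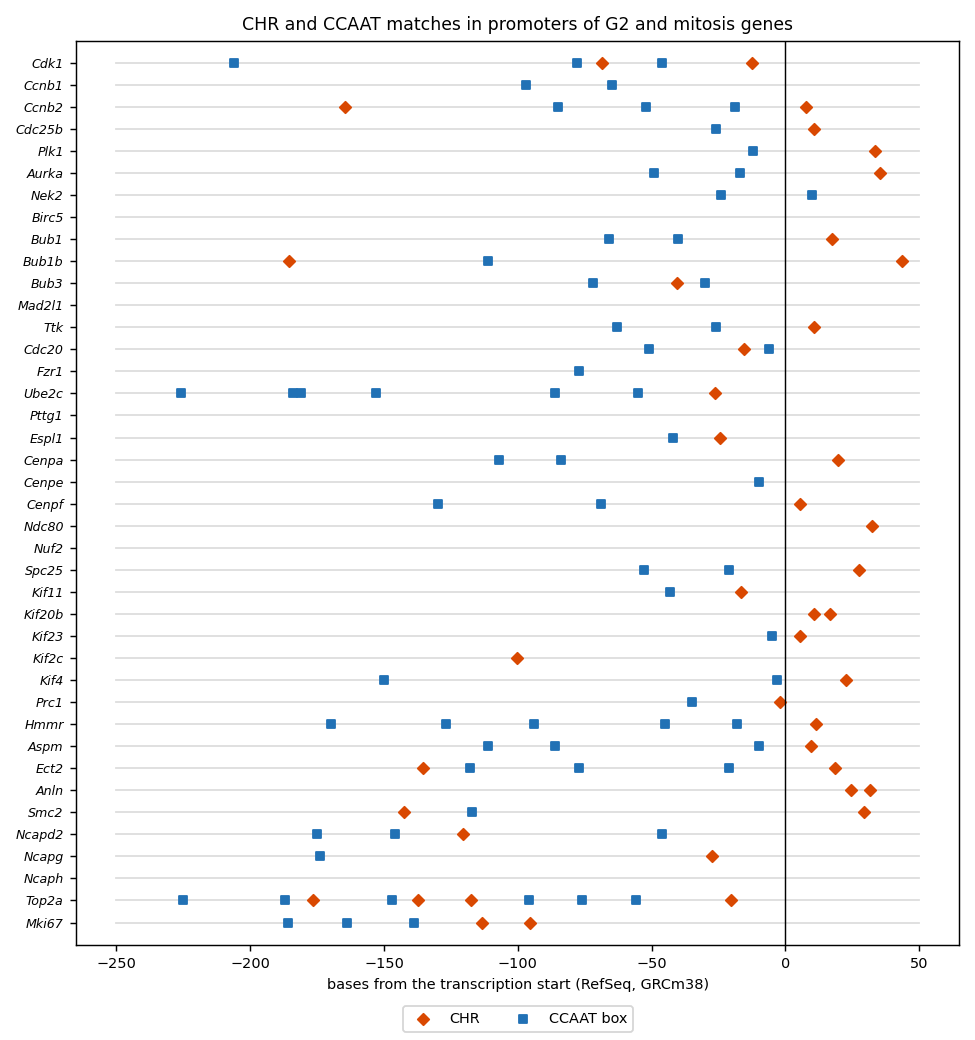
Position of CHR matches (diamonds) and CCAAT boxes (squares) in the promoter windows of 40 members, in bases from the start of transcription (vertical line), with a gene on each row and, for the genes with more than 1 window, the window of lowest coordinate. Most CHR matches lie within 50 bases of the start (28 of 40 genes have such a match), with the CCAAT boxes mostly upstream of them, and 5 rows are empty.

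The deposited values are FPKM, fragments scaled to transcript length and to the mapped fragments of the library, so levels can be compared between genes. FPKM values carry no read counts. The depth is therefore unknown, although the steps between low values put the libraries within 0.841 to 1.08 of the depth of E14 *Stat3* cKO. That estimate is rough, since few of the genes below 0.3 FPKM shared the commonest step. They were 41 of 5328 in E11 CTL, 66 of 4966 in E11 *Stat3* cKO and 59 of 5279 in E14 CTL. A ratio was computed without a pseudocount for every symbol averaging 1 FPKM or more across the libraries (12443 symbols, all 47 members among them). With 1 library per group the error of a ratio is unknown, and no test was made. The targeted gene, *Stat3*, read 7.41 FPKM (CTL) and 6.74 FPKM (*Stat3* cKO) at E11 and 27.6 and 9.55 FPKM at E14, so the library labelled *Stat3* cKO was at 0.911 times CTL at E11 and at 0.346 times CTL at E14. *Sox2* and *Nes*, which mark neural progenitors, were at 128 and 41.2 FPKM or above in all 4 libraries. *Ddx3y*, a Y-linked gene, was listed at 0 FPKM in both E11 libraries and at E14 at 0.0569 FPKM (CTL) and 25.1 FPKM (*Stat3* cKO). The part of this difference between the E14 libraries in the genotype ratios was not tested. Scaling each library by its upper quartile would move every log2 ratio of a comparison by the same amount, by 0.15 for genotype at E14, -0.07 for genotype at E11, -0.37 for stage in CTL and -0.15 for stage in *Stat3* cKO.

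E11 CTL held the lowest level of most members, while the order of the other libraries varied. Their mean level over the 4 libraries ran from 5.28 to 152 FPKM with a median of 33.7. The median member stood at 20.5 FPKM (CTL) and 30.5 FPKM (*Stat3* cKO) at E11, and 43.1 and 40.4 FPKM at E14. E11 CTL was the lowest library in 43 of the 47 members (91.5%), against 35% of all analysed genes, and E14 CTL in the other 4 (8.51%), against 20.4%. With the upper quartiles equalised, E11 CTL was lowest in 40 members (85.1%), against 19.9% of all genes. The highest library was E14 CTL for 24 members (51.1%, against 39.3% of all genes), E14 *Stat3* cKO for 18 (38.3%, against 20.5%) and E11 *Stat3* cKO for 5 (10.6%, against 23.8%). With the upper quartiles equalised these counts were 13 (27.7%, against 20.8%), 24 (51.1%, against 25.1%) and 10 (21.3%, against 25.3%). The order E11 CTL, E11 *Stat3* cKO, E14 *Stat3* cKO, E14 CTL from low to high was found in 22 members (46.8%), against 19.2% of all genes, and the order with both E14 libraries exchanged in 15 (31.9%), against 9.2%. With the upper quartiles equalised these orders were found in 10 members (21.3%, against 7.64% of all genes) and 22 (46.8%, against 7.62%). *Espl1* had the lowest level of any member in each library, from 3.95 to 6.00 FPKM. The highest level was that of *Top2a* in the E11 libraries, at 105 and 154 FPKM, and that of *Ccnb1* in the E14 libraries, at 206 and 200 FPKM.

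**Figure D2:**
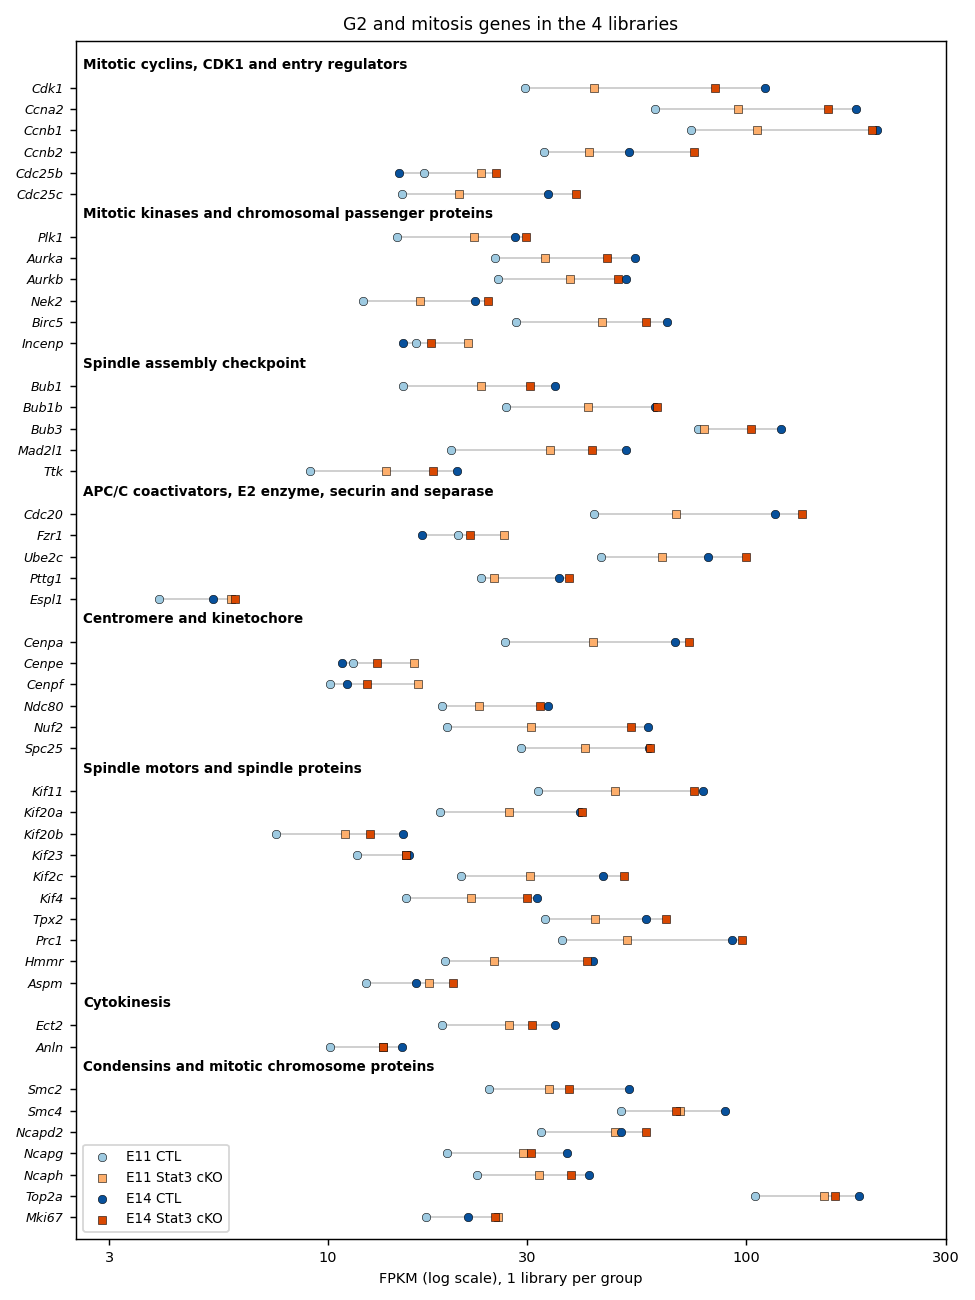
FPKM (log scale) of the 47 members in CTL (circles) and *Stat3* cKO (squares) at E11 (light) and E14 (dark), 1 library per group, ordered by class, with a grey line from the lowest to the highest library. The E11 CTL point is leftmost in 43 rows, and the 2 E14 points exchange places from gene to gene.

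At E11 every one of the 47 members was higher in *Stat3* cKO than in CTL, against 61.8% of all analysed genes, and *Bub3*, at 1.03 times CTL, was the sole member to turn lower when the median of all genes was set to 0 or the upper quartiles were equalised. The median member was at 1.44 times CTL (log2 0.52), beside a median log2 ratio of 0.06 over all analysed genes and 0.08 over the 8530 genes in the members' range of level. At least 1.5-fold higher were 14 of the 47 (29.8%), against 2.17% of all genes, and 0 were at least 1.5-fold lower, against 3.66%. None reached 2-fold in either direction, where the shares of all genes were 0.201% higher and 1.12% lower. The class medians lay between log2 0.48 for the APC/C and separase class and 0.61 for the spindle assembly checkpoint. The single ratios ran up to 1.72 for *Mad2l1*. The *Stat3* level itself was at 0.911 times CTL in this pair of libraries.

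At E14 the members lay on both sides of CTL. Of the 47, 23 were higher and 24 lower in *Stat3* cKO, so that 48.9% were higher against 39.9% of all analysed genes, and the split was 29 to 18 (61.7% higher, against 50% of all genes) after centring on the median gene and 32 to 15 (68.1%, against 59.6%) with the upper quartiles equalised. The median member was at 0.988 times CTL (log2 -0.02), beside -0.08 over all genes and -0.10 over the genes in the members' range of level, and it became 0.061 and 0.13 under these scalings, which put the median of all genes at 0 and 0.07. At least 1.5-fold higher was 1 member, *Cdc25b*, against 5.8% of all genes, and 0 were at least 1.5-fold lower, against 7.66%. None passed 2-fold, as did 1.84% of all genes upward and 1.68% downward. Within 1.1-fold of CTL were 16 members (34%), close to the 32.9% of all analysed genes. Under the pseudocounts and scalings tried, 23 members kept a level above CTL and 15 a level below it, and the other 9 (*Aurkb*, *Ccnb1*, *Hmmr*, *Kif11*, *Kif23*, *Kif4*, *Ncaph*, *Ndc80* and *Nuf2*) lay close enough to CTL to change side under upper-quartile scaling.

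The class medians ran from -0.20 to 0.22 at E14, and no difference between classes was tested. All 5 genes of the APC/C and separase class were above CTL, with a median log2 ratio of 0.22, whereas both cytokinesis genes, 4 of 5 checkpoint genes and 5 of 7 condensin and chromosome genes were below it, against 60.1% of all analysed genes, with medians of -0.17, -0.20 and -0.18. The median of the APC/C and separase class stayed positive under both scalings, whereas upper-quartile scaling brought the medians of the cytokinesis, checkpoint and condensin classes to -0.019, -0.047 and -0.033 and that of all genes from -0.08 to 0.07, since it moves all ratios alike. The spindle class was split 5 to 5 as deposited (50% higher, against 39.9% of all genes), 8 to 2 after centring (80%, against 50%) and 9 to 1 with the upper quartiles equalised (90%, against 59.6%), with medians of 0.00, 0.07 and 0.15. The cyclins had a median of 0.09, the kinetochore class 0.05 and the kinases 0.01.

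**Figure D3:**
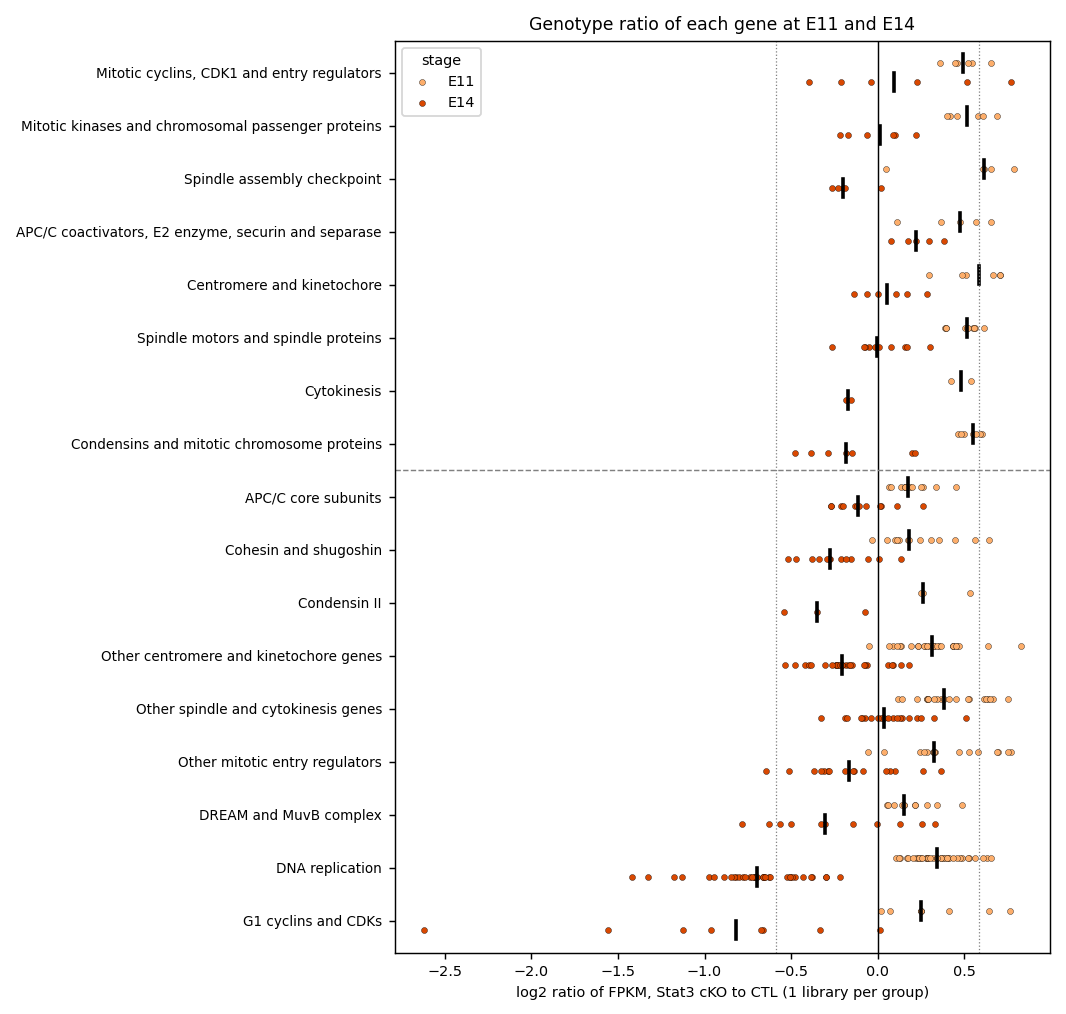
Log2 ratio of FPKM in *Stat3* cKO to CTL at E11 (light) and E14 (dark) for each gene of the 8 classes of members (above the dashed line) and of 9 other lists (below it), with the median as a black bar and 1.5-fold as dotted lines. At E11 every class median lies to the right of 0, between 0.48 and 0.61, while at E14 the class medians lie between -0.20 and 0.22 and the DNA replication and G1 lists at -0.70 and -0.82.

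The regulators of mitotic entry ranged more widely at E14 than any other class, from 0.759 to 1.71 times CTL. *Cdk1*, the kinase that drives mitosis (chromosome 10, 68799382 to 68815660 in the coordinates the files list), stood at 29.6 FPKM (CTL) and 43.2 FPKM (*Stat3* cKO) at E11, and 111 and 84.4 FPKM at E14. It was at 1.46 times CTL at E11 and 0.759 times CTL at E14, the lowest E14 ratio in its class. *Ccna2*, the cyclin A that partners CDK2 and then CDK1, had 60.6 and 95.4 FPKM in E11 CTL and *Stat3* cKO, and 183 and 157 in E14 CTL and *Stat3* cKO. Both genes were thus higher than CTL at E11 and lower than CTL at E14.

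The B-type cyclins differed from each other at E14. *Ccnb1*, the main mitotic cyclin, had 73.9 and 106 FPKM in the E11 libraries (CTL first, here and below) and 206 and 200 in the E14 libraries. *Ccnb2*, a second B-type cyclin, had 32.9 and 42.2 FPKM at E11 and 52.6 and 75.2 at E14. At E14 *Ccnb2* was therefore at 1.43 times CTL and *Ccnb1* at 0.973 times, and the level of *Ccnb1* relative to *Ccnb2* was 2.24 and 2.51 at E11 and 3.91 and 2.66 at E14. Among the CDC25 phosphatases that activate CDK1, *Cdc25b* had 17 and 23.2 FPKM at E11 and 14.8 and 25.2 at E14. It was the member with the highest E14 genotype ratio, 1.71, and its CTL level was lower at E14 than at E11, unlike that of the other genes of this class. *Cdc25c* had 15 and 20.6 FPKM at E11 and 33.5 and 39.1 at E14, 1.17 times CTL at E14.

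The mitotic kinases and the chromosomal passenger proteins were close to CTL at E14, with 3 members on each side. *Plk1*, polo-like kinase with roles from mitotic entry to cytokinesis, had 14.6 and 22.3 FPKM at E11 and 28.0 and 29.7 at E14. *Aurka*, the kinase of centrosome maturation, had 25.1 and 33.1 FPKM at E11 and 54.2 and 46.6 at E14, and its E14 ratio of 0.860 was the lowest of the class. *Aurkb*, the catalytic subunit of the passenger complex, had 25.5 and 38.0 FPKM at E11 and 51.7 and 49.4 at E14. The E14 libraries were thus 1.06-, 0.860- and 0.956-fold of CTL for these kinases, while at E11 the ratios were 1.52, 1.32 and 1.49. *Nek2*, which separates the centrosomes, had 12.1 and 16.6 FPKM at E11 and 22.5 and 24.1 at E14. *Birc5* (survivin), the passenger subunit that binds centromeric chromatin, had 28.1 and 45.2 FPKM at E11 and 64.7 and 57.6 at E14. *Incenp*, the scaffold of the passenger complex, had 16.2 and 21.6 FPKM at E11 and 15.1 and 17.6 at E14. *Incenp* had the highest E14 ratio in the class, 1.16, and was the sole gene of the class whose level was lower at E14 than at E11 in both genotypes.

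The spindle assembly checkpoint genes had the highest class median at E11 and the lowest at E14. *Mad2l1* encodes MAD2, which inhibits CDC20 at unattached kinetochores, and had 19.7 and 33.9 FPKM at E11 and 51.5 and 42.8 at E14. Its ratios of 1.72 and 0.831 were the highest of all members at E11 and the lowest of the class at E14. *Bub1*, a kinetochore kinase of the checkpoint, had 15.1 and 23.2 FPKM at E11 and 35.0 and 30.5 at E14. *Bub1b*, which encodes the MAD2 partner BUBR1, had 26.7 and 41.9 FPKM at E11 and 60.4 and 61.2 at E14, and its ratio of 1.01 was the highest of the class at E14. *Ttk* encodes MPS1, the kinase at the head of the checkpoint, and had 9.06 and 13.8 FPKM at E11 and 20.3 and 17.8 at E14. *Bub3*, whose protein carries BUB1 and BUBR1 to the kinetochore, had 76.7 and 79.2 FPKM at E11 and 121 and 103 at E14. *Bub3* was the most highly expressed gene of the class in every library and the member least different between genotypes at E11.

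The APC/C is the ubiquitin ligase that ends mitosis, and here its coactivators and E2 enzyme are given with securin, which it destroys, and separase, which securin holds inactive. *Cdc20*, the coactivator of metaphase, had 43.3 and 68.0 FPKM at E11 and 117 and 136 at E14. *Fzr1* encodes CDH1, the coactivator of late mitosis and G1, and had 20.5 and 26.4 FPKM at E11 and 16.8 and 21.9 at E14. *Ube2c*, the E2 enzyme that charges the APC/C, had 45.1 and 62.8 FPKM at E11 and 81.2 and 99.8 at E14. All of these were above CTL at both stages, at 1.17, 1.30 and 1.23 times CTL at E14, with *Fzr1* the highest of the class. *Pttg1* (securin), the inhibitor of separase, had 23.2 and 25 FPKM at E11 and 35.7 and 37.7 at E14. *Espl1* (separase), the protease that cleaves cohesin, had 3.95 and 5.85 FPKM at E11 and 5.32 and 6.00 at E14. *Pttg1* had the lowest E14 ratio of the class, 1.06, and after *Bub3* it differed least between genotypes at E11, at 1.08 times CTL.

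The centromere and kinetochore genes divided into those that were much higher at E14 and those that were not. *Cenpa*, the histone H3 variant that marks the centromere, had 26.5 and 43.1 FPKM at E11 and 67.7 and 72.9 at E14. *Nuf2* had 19.3 and 30.6 FPKM at E11 and 58.2 and 53.0 at E14, and its E14 ratio of 0.910 was the lowest of the class. Its partners in the NDC80 complex, which grips the ends of microtubules, lay nearer to CTL at E14. *Ndc80* had 18.7 and 23.0 FPKM at E11 and 33.6 and 32.1 at E14. *Spc25* had 28.9 and 41.1 FPKM at E11 and 58.7 and 58.8 at E14. The microtubule motor of the kinetochore, *Cenpe*, had 11.5 and 16.1 FPKM at E11 and 10.8 and 13.1 at E14. With 1.22 it had the highest E14 ratio of the class, and in both genotypes it was lower at E14 than at E11. *Cenpf*, a large protein of the outer kinetochore, had 10.1 and 16.4 FPKM at E11 and 11.1 and 12.4 at E14, and its E14 level in *Stat3* cKO was 0.756 times the E11 level.

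The spindle genes were all higher in *Stat3* cKO at E11, and at E14 their ratios ran from 0.834 to 1.23. *Kif11* encodes the bipolar kinesin that pushes the spindle poles apart, and had 31.8 and 48.7 FPKM at E11 and 79.0 and 75.2 at E14. *Tpx2*, an activator of Aurora A on the spindle, had 33.0 and 43.5 FPKM at E11 and 57.7 and 64.2 at E14. *Hmmr*, a spindle protein that binds TPX2, had 19 and 24.9 FPKM at E11 and 43.1 and 41.6 at E14. For these genes the E14 libraries differed by little, with ratios of 0.952, 1.11 and 0.965. *Kif2c*, which depolymerises microtubules and corrects wrong attachments, had 20.8 and 30.5 FPKM at E11 and 45.4 and 51.1 at E14. *Kif4*, a chromosome-bound kinesin, had 15.4 and 22 FPKM at E11 and 31.7 and 30 at E14. *Aspm*, a spindle pole protein whose human counterpart is mutated in primary microcephaly, had 12.3 and 17.4 FPKM at E11 and 16.2 and 19.9 at E14. *Aspm* had the highest E14 ratio of the class, 1.23.

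The other genes of the class act on the central spindle that forms between the separating chromosomes. *Prc1* bundles its microtubules and had 36.3 and 51.8 FPKM at E11 and 92.7 and 97.7 at E14. *Kif23*, a motor of the centralspindlin complex, had 11.7 and 15.4 FPKM at E11 and 15.6 and 15.4 at E14. The latter was as high in *Stat3* cKO at E11 as at E14, whereas *Prc1* was 1.89-fold higher at E14. *Kif20a*, which brings the passenger complex to the midzone, had 18.5 and 27.1 FPKM at E11 and 40.1 and 40.4 at E14. *Kif20b*, another kinesin of late mitosis, had the lowest E14 ratio of the class, 0.834, with 7.5 and 11 FPKM at E11 and 15.1 and 12.6 at E14. Its CTL level was 2.02-fold higher at E14 than at E11, and its *Stat3* cKO level 1.14-fold. In cytokinesis, *Ect2*, which activates RhoA at the cleavage furrow, had 18.7 and 27.1 FPKM at E11 and 35.0 and 30.8 at E14. *Anln*, the anillin of the contractile ring, had 10.1 and 13.5 FPKM at E11 and 15 and 13.5 at E14. Both were higher than CTL at E11, at 1.45 and 1.34 times, and lower at E14, at 0.880 and 0.897 times.

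Condensin I shapes mitotic chromosomes, and its ATPase subunits had the lowest genotype ratios of the class at E14. *Smc2* (chromosome 4, 52452120 to 52501131 as listed) had 24.3 and 33.8 FPKM at E11 and 52.6 and 37.8 at E14, and its E14 ratio of 0.719 was the lowest of all members. *Smc4* had 50.3 and 69.5 FPKM at E11 and 89.0 and 68.1 at E14, an E14 ratio of 0.765. *Smc2* and *Smc4* are shared with condensin II. Among the subunits of condensin I alone, *Ncapg* had 19.3 and 29.3 FPKM at E11 and 37.3 and 30.6 at E14. *Ncaph* had 22.7 and 32.0 FPKM at E11 and 42.2 and 38.1 at E14. In contrast with these, *Ncapd2*, with 32.3 and 48.7 FPKM at E11 and 50.1 and 57.5 at E14, was at 1.15 times CTL at E14. *Top2a*, the topoisomerase that untangles sister chromatids, had 105 and 154 FPKM at E11 and 186 and 163 at E14. *Mki67*, which coats mitotic chromosomes and is the antigen of the common proliferation marker Ki-67, had 17.2 and 25.5 FPKM at E11 and 21.6 and 25.1 at E14. *Mki67* had the highest E14 ratio of the class, 1.16, and its levels in both *Stat3* cKO libraries were nearly equal.

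From E11 to E14 the deposited levels of the members were mostly higher in both genotypes, and by more in CTL. The summed FPKM of all rows also differed, at 948738 and 806587 at E11 and 1394045 and 1461770 at E14 (CTL first). As a share of this sum the members held 0.132% and 0.221% at E11 and 0.185% and 0.172% at E14. In *Stat3* cKO that share was thus lower at E14. In CTL 43 of the 47 were higher at E14 (91.5%), against 60.5% of all analysed genes, with a median of 1.93-fold (log2 0.95) beside a median log2 ratio of 0.21 over all genes and 0.30 over the genes in the members' range of level. At least 1.5-fold higher were 37 (78.7%), against 30.3% of all genes, and at least 2-fold higher were 23 (48.9%), against 14.6%. The count at 2-fold was 9 (19.1%) after centring on the median gene, against 9.74% of all genes, and 6 (12.8%) with the upper quartiles equalised, against 7.21%. None was 1.5-fold lower, against 18.9% of all genes, or 2-fold lower, against 12.5%. The ratios ran from 0.820 for *Fzr1* to 3.75 for *Cdk1*, and the genes after *Cdk1* were *Nuf2* at 3.02, *Ccna2* at 3.01 and *Ccnb1* at 2.78. *Fzr1*, *Cdc25b*, *Incenp* and *Cenpe* were lower at E14 than at E11 in CTL.

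In *Stat3* cKO 40 of the 47 were higher at E14 (85.1%), against 53.3% of all analysed genes, and 35 (74.5%) were with the upper quartiles equalised, against 44.5%. The median was 1.32-fold (log2 0.40), beside 0.06 over all genes and 0.10 in the members' range of level. As a share of the summed FPKM, in contrast, the members went from 0.221% at E11 to 0.172% at E14, and no ratios were computed on that scale. At least 1.5-fold higher were 14 (29.8%), against 21.6% of all genes. No member reached 2-fold higher, against 10.1% of all genes, although *Cdc20* came close with a log2 ratio of 0.997, and *Cdk1* was at 1.95-fold. The lower side was empty at 1.5-fold, against 20.1% of all genes, and at 2-fold, against 11.7%, with *Cenpf* at 0.756 the lowest. By class, the median log2 ratio in *Stat3* cKO was highest for the cyclins at 0.87 and the APC/C and separase class at 0.59. It was lowest for cytokinesis and for the condensin and chromosome class, both at 0.09 as deposited and at -0.06 with the upper quartiles equalised. In CTL the same classes had medians of 1.31, 0.62, 0.74 and 0.82.

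**Figure D4:**
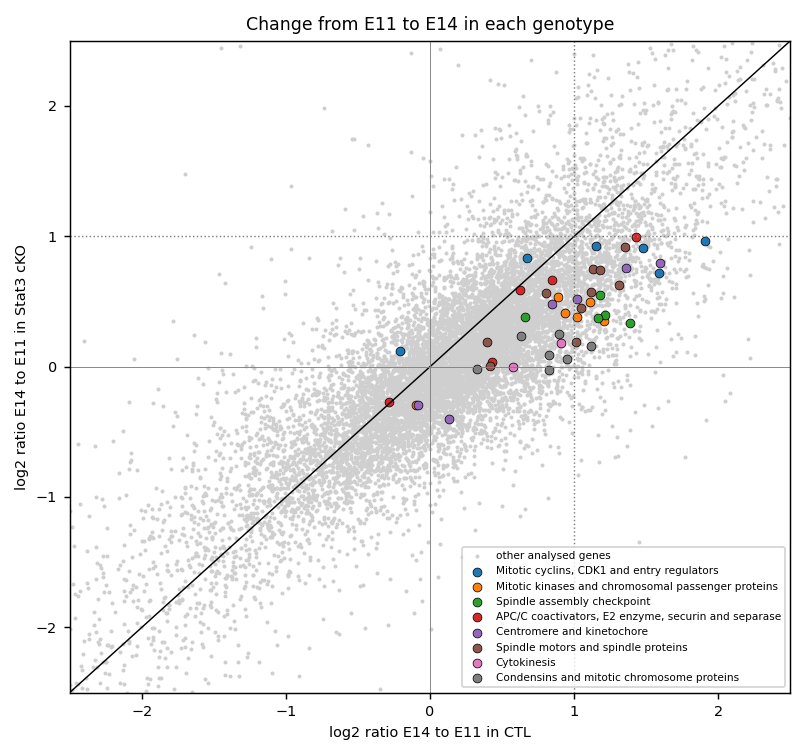
Log2 ratio of FPKM at E14 to E11 in CTL (horizontal) and in *Stat3* cKO (vertical), with members coloured by class, other analysed genes in grey where both ratios lie inside the axes, the diagonal of equal change and 2-fold as dotted lines. Of the 47 members, 44 lie below the diagonal (39 with the upper quartiles equalised), 23 lie at or beyond 2-fold in CTL and 0 in *Stat3* cKO.

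The difference between the genotypes' stage changes is, gene by gene, the same quantity as the difference between the genotype ratios at E14 and E11. It was below 0 in 44 of the 47 members (93.6%) with a median of -0.54 on the log2 scale, against 62.2% and -0.12 over all analysed genes, and with 1 library per group it could not be tested. The exceptions were *Cdc25b*, *Ccnb2* and *Fzr1*. The other cell cycle lists showed it as well, with 37 of 37 DNA replication genes below 0 at a median of -1.06, 8 of 8 G1 cyclins and CDKs at -1.14, 27 of 27 other centromere and kinetochore genes at -0.52 and 13 of 13 cohesin and shugoshin genes at -0.44. Condensin II had 3 of 3 below 0 at -0.60 and the APC/C core subunits 12 of 12 at -0.245. The counts were 15 of 16 for other mitotic entry regulators (-0.53), 19 of 21 for other spindle and cytokinesis genes (-0.38) and 9 of 11 for DREAM and MuvB (-0.39). After centring on the median gene it was below 0 in 43 members with a median of -0.40, beside 48.5% and 0.02 over all genes. With the upper quartiles equalised it was below 0 in 39 (83%) with a median of -0.32, beside 39.9% and 0.10 over all genes. The median was -0.79 in the checkpoint class, -0.74 in the condensin and chromosome class and -0.18 in the APC/C and separase class as deposited, and -0.57, -0.51 and 0.04 with the upper quartiles equalised. Each library enters 2 of the 4 comparisons, and the E11 CTL library, the lowest in 43 members, enters both the E11 genotype ratio and the CTL stage ratio. That library also differed from the others in *Rn45s*, the ribosomal RNA precursor, which was listed at 0 FPKM there, at 7780 FPKM in its E11 counterpart and at 4154 (CTL) and 5674 (*Stat3* cKO) FPKM at E14. The part of this difference in the ratios that use E11 CTL was not tested.

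Markers of other cell types also differed between the stages. The summed level of 6 mesenchymal markers was 1185 and 1092 FPKM at E11 and 12.8 and 8.7 at E14, with *Col3a1* alone at 674 and 586 FPKM at E11 and 7.64 and 4.29 at E14. The sum of 8 neural progenitor markers was 1437 and 1634 FPKM at E11 and 7271 and 7920 at E14. Most of this difference came from *Fabp7*, at 516 and 594 FPKM and then 5245 and 5929, and from *Vim*, at 582 and 609 and then 1556 and 1259. *Pax6*, in contrast, was at 44.2 and 48.6 FPKM at E11 and 14.6 and 19 at E14. *Msi1* was at 21.2 and 21.8 FPKM and then 4.25 and 7.03, and *Sox1* at 16.4 and 21.4 and then 12 and 16.4. Astrocyte markers (5 genes) summed to 13.3 and 11.5 FPKM at E11 and 278 and 383 at E14, oligodendrocyte lineage markers (7 genes) to 73.0 and 94.2 and then 567 and 550, neuron markers (8 genes) to 696 and 725 and then 1043 and 888, and intermediate progenitor markers (5 genes) to 130 and 146 and then 86.6 and 133. *Gfap*, below 1 FPKM in every library, was at 0.207 times CTL at E14, where the other astrocyte markers were above CTL. At E14 *Olig1* and *Olig2* made up most of the oligodendrocyte sums. Both were below CTL, whereas the other 5 of the 7 genes were above it, with a median ratio of 1.7 over all 7. In CTL *Pdgfra* and *Mbp* stood at 0.676 and 0.69 times their E11 level at E14. Microglial markers (6 genes, with *Aif1* at 0 in a library), endothelial markers (5 genes) and red cell markers (2 of 4 genes listed) stayed at or below 6.98 FPKM in sum in every library. The part of these differences in the stage ratios, and of the smaller differences between genotypes in the genotype ratios, was not tested.

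Genes of the same pathways that are not members were read from 9 further lists, by counts and medians. At E11 they too were mostly above CTL, by less than the members, with median log2 ratios between 0.15 for the DREAM and MuvB complex and 0.38 for other spindle and cytokinesis genes. At E14 their counts are to be read against the 39.9% of all genes that were higher and the median of -0.08 over all genes, or, with the upper quartiles equalised, against 59.6% and 0.07. Other spindle and cytokinesis genes were higher in 14 of 21 (66.7%), with a median of 0.04 and ratios from 0.796 for *Kif18a* to 1.42 for *Troap*. Other mitotic entry regulators were higher in 5 of 16 (31.2%), or 8 (50%) with the upper quartiles equalised, with a median of -0.17 and ratios from 0.640 for *Cdc25a* to 1.29 for *Cdkn3*. The other centromere and kinetochore genes were higher in 5 of 27 (18.5%), or 9 (33.3%) with the upper quartiles equalised, with a median of -0.21 and ratios from 0.689 for *Cenpk* to 1.13 for *Cenpt*. *Hjurp* of that list is listed only in a joined row and has no value here.

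The complexes that handle sister chromatids and mitotic exit varied in how they compared with all genes at E14. The core subunits of the APC/C were higher in 4 of 12 (33.3%), close to the share of all genes, from 0.828 for *Anapc4* to 1.20 for *Anapc13*, with a median of -0.12 that turned to 0.04, with 8 higher (66.7%, against 59.6% of all genes), once the upper quartiles were equalised. Cohesin, which holds sister chromatids together, and shugoshin genes were higher in 2 of 13, from 0.697 for *Stag2* to 1.1 for *Rad21*, with a median of -0.28. Condensin II subunits were higher in 0 of 3, from 0.686 for *Ncapg2* to 0.948 for *Ncaph2*, with a median of -0.35. The DREAM and MuvB complex genes, whose products bind the CHR, were higher in 3 of 11, from 0.581 for *Mybl2*, which encodes B-MYB, to 1.26 for *Lin37*, with a median of -0.30. With the upper quartiles equalised the last list was higher in 5 of 11 (45.5%) with a median of -0.15, below the 59.6% and 0.07 of all genes.

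The genes of the earlier steps of the cell cycle had lower ratios at E14. Of 37 DNA replication genes 0 were higher in *Stat3* cKO and 26 were at least 1.5-fold lower, against 7.66% of all genes, with a median of -0.70 and ratios from 0.373 for *Cdc6*, which loads the replicative helicase, to 0.858 for *Gins4*. Among 8 G1 cyclins and CDKs 6 were at least 1.5-fold lower, with a median of -0.82. *Ccnd1*, the cyclin D that carries growth factor signals into the cell cycle, had 101 and 120 FPKM at E11 and 210 and 34.2 at E14, 0.163 times CTL at E14. *Cdk4*, its kinase partner, was the highest of the list, at 1.01 times CTL. At E11 the same lists had medians of 0.34 and 0.25, below that of the members, and as deposited the other spindle and cytokinesis genes were the sole list with an E14 median above 0. The ranges overlapped, with 7 of the 47 members below *Gins4* and 6 of the 37 replication genes above the lowest member, *Smc2* at 0.719. No test of this difference between lists was made, because each rests on the same 2 libraries.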

How the data were processed

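RNA was isolated with Trizol from neural progenitors of 4 groups (CTL and *Stat3* cKO at E11 and at E14, 1 library each) and sequenced on an Illumina HiSeq. After a FastQC check the authors aligned the reads and estimated expression with the TopHat and Cufflinks workflow, and deposited FPKM values, which are normalised to transcript length and mapped fragments. The submitters' processing notes name Bowtie 0.12.2 and the builds mm8 and mm9 without their roles, so loci are given as listed and were not combined with GRCm38 coordinates. Read counts and total depth are unknown.

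Values were used as deposited. The 47 members with a row of their own were taken by symbol. Of the rows, 140 join several genes and were kept under their joined name, and for a symbol on several rows the row of highest mean was used. Symbols averaging 1 FPKM or more were compared by plain ratios, and a gene at 0 in either library was given no ratio. Counts at 1.5-fold and 2-fold and medians were set beside the same over all analysed genes. With 1 library per group no test was made. All members were named, the lowest and highest E14 genotype ratio of each class were singled out, and each further list was represented by its lowest and highest gene at E14. The members and lists were chosen with earlier results of these data known. Promoter windows came from RefSeq (GRCm38.p6). The 8 members without a window were *Ccna2*, *Cdc25c*, *Foxm1*, *Aurkb*, *Incenp*, *Kif20a*, *Tpx2* and *Smc4*. The alternatives were pseudocounts of 0.1 and 1 FPKM, setting the median of all genes to 0, upper-quartile scaling, a minimum mean of 5 FPKM or none, and thresholds of 1.5-fold and 3-fold. The steps were tested on simulated data. Scripts ran under Python 3.11.15, using pandas 2.3.3, numpy 2.4.6 and matplotlib 3.10.9.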

Additional observations from a re-analysis of the deposited data

Results flagged for a closer look

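Genes with opposite directions in both contrasts are listed here. In 14 members the genotype ratio was above 1 at E11 and below 1 at E14 with the values as deposited and under both scalings. This was 29.8% of the members, against 20.9% of all analysed genes. On the log2 scale the E14 ratio minus the E11 ratio was -1.05 for *Mad2l1*, -0.95 for *Smc2*, -0.94 for *Cdk1*, -0.89 for *Ncapg*, -0.87 for *Ccna2*, -0.86 for *Birc5* and -0.85 for *Smc4*. It was -0.82 for *Kif20b*, -0.81 for *Bub1*, -0.79 for *Ttk*, -0.74 for *Top2a*, -0.72 for *Ect2*, -0.62 for *Aurka* and -0.58 for *Anln*. The list holds members of the cyclin, kinase, checkpoint, spindle, cytokinesis and condensin classes. All 5 APC/C and separase genes were above CTL at E14 as deposited, so none could enter the list. The same held for the kinetochore class, with 6 of 6 genes above CTL at E14 under upper-quartile scaling. In *Smc4* and *Anln* (4.26% of the members, against 4.2% of all genes) the stage ratio was above 1 in CTL and below 1 in *Stat3* cKO as deposited and under both scalings, with the same differences of -0.85 and -0.58, although their log2 stage ratios in *Stat3* cKO were only -0.03 and -0.003. With 1 library per group these differences were not tested.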

How the results depend on the processing

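Each comparison rests on 1 library per group, so no error between replicates is known, and the unknown read depth limits the low-expressed members most. No paired analysis was made, and no group had a replicate. A minimum mean of 5 FPKM or none could not change any median or count, since the lowest member mean was 5.28 FPKM. The counts of members past the fold limit on the lower side were 0 under every setting. Of 112 alternative values for medians and counts, all of these included, 10 moved by more than 0.1 on the log2 scale or by more than 1.5 times, 2 reversed and 100 stayed within these limits, and the cause was not tested. Within these limits the members higher at E14 in *Stat3* cKO than in CTL still went from 23 to 29 with centring on the median gene and to 32 with upper-quartile scaling, while the share of all genes went from 39.9% to 50% and 59.6%, and those higher at E14 than at E11 in *Stat3* cKO from 40 to 38 and 35. The E14 genotype median of -0.02 became 0.061 when all ratios were centred on the median gene and 0.13 with upper-quartile scaling. The CTL stage median of 0.95 became 0.73 and 0.58 under these scalings, and the *Stat3* cKO stage median of 0.40 became 0.25 under the second. Members at least 2-fold higher at E14 in CTL numbered 23, against 9 and 6 under these scalings, 37 at a threshold of 1.5-fold and 3 at 3-fold. At 1.5-fold the counts of higher members were 1 for genotype at E14, 14 for genotype at E11 and 14 for stage in *Stat3* cKO, where 2-fold gave 0. Of 752 values for single members, 188 moved by more than 0.1 and no ratio of at least 1.5-fold reversed. Smaller ratios changed side for *Bub3* at E11, for *Cenpf* and *Mki67* between stages in CTL, and for *Cdc25b*, *Espl1*, *Kif23*, *Ncapg* and *Top2a* between stages in *Stat3* cKO, besides those named for E14. Scaling to the summed FPKM, of which the members held a smaller share at E14 than at E11 in *Stat3* cKO, was not tried.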
